A study of Mus musculus with 9 samples.

Results

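Ten-eleven translocation (TET) enzymes oxidise methylated cytosine, the step that opens active DNA demethylation. Transcripts of 10 Wnt pathway genes were followed by bulk RNA-seq in P21 mouse retinas with and without conditional deletion of the genes for these enzymes. The 10 genes are the ligands Wnt2b and Wnt5a, the secreted antagonists Sfrp1, Sfrp2, Sfrp5, Frzb and Wif1, the secreted Dickkopf family member Dkk3, and the nuclear effector Lef1 with the feedback target Axin2. They were chosen by name, with earlier results of these data known, and each matched a single one of the 55487 genes in the deposited table.

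All animals were of the C57 BL/6J strain and were taken at P21. Tet tcKO retinas were homozygous for floxed alleles of Tet1, Tet2 and Tet3 (loxp/loxp) and carried Chx10-Cre-GFP. The tHet retinas carried the same Cre transgene and a single floxed copy of each gene (loxp/+). Cre- retinas, given as WT in the labels, lacked the transgene. Each genotype had 3 libraries, each made from the pooled retinas of a pair of animals. Chx10-Cre-GFP is active in retinal progenitor cells and is known to act as a mosaic. Cre-positive animals were crossed with each other to reduce this. Cells that escaped recombination can still be present in tHet and Tet tcKO retinas. Cre- animals came from their own Cre- breeders, and breeding line and genotype cannot be told apart in comparisons with Cre-.

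Levels are given as CPM, the reads of a gene scaled to the library's total of reads on genes, as the authors deposited them. Each library held between 9627927 and 21108256 reads on genes, so that a single read was worth 0.0474 to 0.104 CPM, and a floor of 3 reads stood at 0.142 to 0.312 CPM. CT010467.1, a ribosomal RNA gene, took 28.7% of the reads of Tet tcKO replicate 3 and 3.72% of those of tHet replicate 3, against at most 0.226% in the other libraries. Every other gene of those libraries is lowered by that share, and values without it are given where they matter. Recomputing CPM without it moved the median log2 fold change (log2FC) of all tested genes in Tet tcKO versus Cre- from 0.00 to 0.14. The targeted gene Tet3 was at 213, 268 and 223 CPM in Cre-, 268, 288 and 155 CPM in tHet and 108, 152 and 99.2 CPM in Tet tcKO, with every Tet tcKO library below all others. Tet1 and Tet2 overlapped between genotypes, in counts that include the exons left after recombination. A gene was tested where 3 or more libraries reached 0.5 CPM, which held for 21330. Tests were made on log2(CPM + 0.5) by limma with Benjamini-Hochberg adjustment over all of them, and a gene was called where the absolute log2FC reached 1 with an adjusted p under 0.01. On this scale a log2FC understates the change of a low gene.

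Wnt proteins are lipid-modified ligands that bind Frizzled receptors. In the canonical branch, binding with the co-receptors Lrp5 or Lrp6 halts a destruction complex built on Axin, so that beta-catenin accumulates and acts in the nucleus with Tcf and Lef factors. Other branches steer planar polarity or calcium release. Secreted Frizzled-related proteins and Wif1 bind Wnt proteins outside the cell, and Axin2 is a target that feeds back on the pathway. In the eye, Wnt signalling is known for its part at the ciliary margin and in the vasculature of the retina.

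Of the 10 genes, 9 were tested, and each of these was at 0.5 CPM or more in all 9 libraries. Lef1 was called higher in Tet tcKO than in Cre- and than in tHet, a pair of calls that 2.30% of tested genes had in either direction, and it was the single member called. Across all tested genes, 3.60% were called in Tet tcKO versus Cre- (2.03% higher) and 3.00% in Tet tcKO versus tHet (1.39% higher). Sfrp2 was, next to Lef1, the other gene whose Tet tcKO libraries all lay above every Cre- and tHet library, an order held by 5.32% of tested genes, but it fell short of the adjusted p. Wnt5a lay above Cre- alone and Dkk3 above tHet alone. Sfrp5 lay below tHet, as 9.68% of tested genes did, and overlapped Cre-. Wnt2b, Sfrp1, Frzb and Axin2 overlapped in both comparisons, and Wif1 was near the limit of detection in all genotypes.

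The TET enzymes act on cytosines at CpG, and so the sequence upstream of 3 members is shown with its CpG in capitals. Lef1 and Sfrp2 are shown because their Tet tcKO libraries stood apart from both other genotypes, and Axin2 because it is a canonical target whose libraries did not. Each sequence is the 250 bases 5′ of a RefSeq start on the plus strand of GRCm38.p6, the patched release of the mm10 assembly used for alignment. The Lef1 sequence is chr3:131110047-131110296 and holds 11 CpG. It belongs to the most upstream of 4 RefSeq starts, which lies upstream of the start of Lef1 in GENCODE, at 131110471. The Sfrp2 sequence is chr3:83766071-83766320 with 16 CpG, and the Axin2 sequence is chr11:108920099-108920348 with 24 CpG.
Lef1: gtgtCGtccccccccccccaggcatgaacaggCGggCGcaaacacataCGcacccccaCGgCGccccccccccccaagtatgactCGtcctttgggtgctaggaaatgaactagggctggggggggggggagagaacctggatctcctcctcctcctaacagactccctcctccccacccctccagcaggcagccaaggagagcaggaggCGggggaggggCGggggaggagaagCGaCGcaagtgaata
Sfrp2: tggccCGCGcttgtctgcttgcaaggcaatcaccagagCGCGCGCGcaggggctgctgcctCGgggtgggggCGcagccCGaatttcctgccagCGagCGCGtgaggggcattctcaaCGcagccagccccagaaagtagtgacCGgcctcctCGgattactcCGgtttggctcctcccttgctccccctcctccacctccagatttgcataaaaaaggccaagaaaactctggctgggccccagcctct
Axin2: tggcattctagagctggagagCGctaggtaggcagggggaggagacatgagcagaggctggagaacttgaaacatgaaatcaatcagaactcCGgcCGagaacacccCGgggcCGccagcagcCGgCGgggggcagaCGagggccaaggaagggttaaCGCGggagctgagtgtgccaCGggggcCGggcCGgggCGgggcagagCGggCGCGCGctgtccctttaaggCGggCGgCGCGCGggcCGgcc

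RefSeq windows of 300 bases, 250 before and 50 after a start, were at hand for 7 of the 10 genes, in 10 windows. The median over all 32851 mouse windows was 7 CpG. Wnt2b had the most, at 43, followed by Axin2 at 31, Wif1 at 25, Sfrp2 at 22, Frzb at 20 and Sfrp5 at 15. The 4 Lef1 windows held 18, 21, 8 and 5. Of all windows, 2.61% had at least as many CpG as Wnt2b and 23.1% at least as many as Sfrp2. Dkk3, Sfrp1 and Wnt5a had no window, and a relation between the CpG of a window and the log2FC of its gene was not tested. DNA methylation itself was not analysed here. Tcf and Lef factors are known to bind the letters CTTTG followed by 2 bases that are each A or T, which were searched on both strands. At least 1 match was in 16.9% of all windows and in 1 of the 10 member windows, that of the fourth Lef1 start. A match of letters is a description of the window and not evidence of a bound site.

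**Figure D1:**
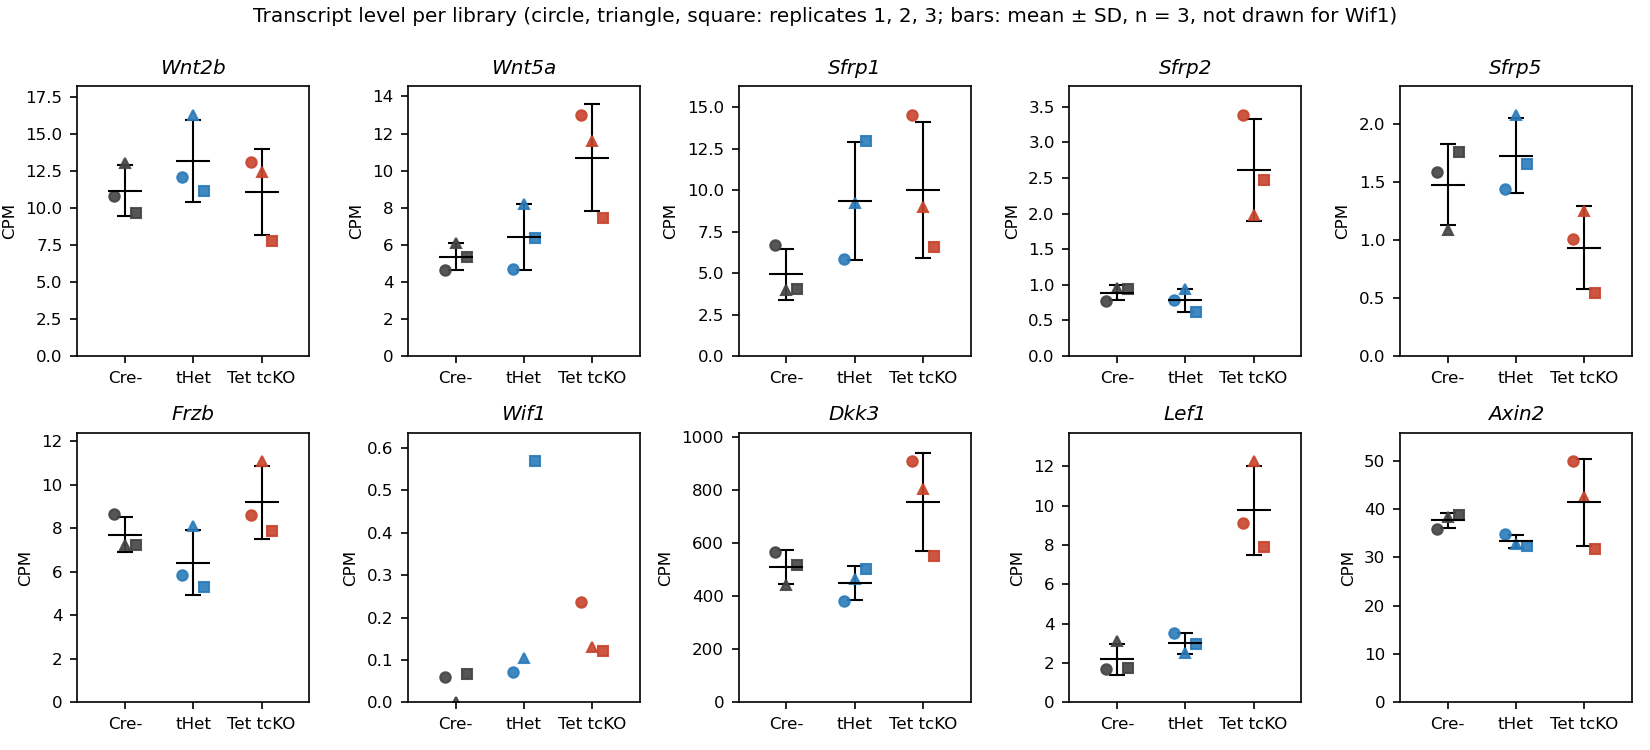
Transcript level in CPM (y axis, from 0, own scale per gene) of the 10 genes in the 3 libraries of each genotype (x axis). Circles, triangles and squares are replicates 1, 2 and 3, and bars are the mean ± SD (n = 3, not drawn for Wif1). All Tet tcKO libraries of Lef1 (7.89 CPM or more) and Sfrp2 (1.98 CPM or more) sit above all other libraries.

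Wnt2b (ENSMUSG00000027840.5, chr3:104945272-104961921 on the minus strand, coordinates here and below from GENCODE on GRCm38) encodes a canonical ligand made at the rim of the retina during development. It was at 10.8, 13.0 and 9.65 CPM in replicates 1, 2 and 3 of Cre-, at 12.1, 16.3 and 11.1 CPM in tHet and at 13.1, 12.5 and 7.77 CPM in Tet tcKO. The 3 genotypes overlapped, and the lowest value was that of Tet tcKO replicate 3, the library rich in CT010467.1. Against Cre- the log2FC of Tet tcKO was −0.03 (95% confidence interval −0.60 to 0.54, limma adjusted p = 0.988), and it was 0.12 without CT010467.1. Differences within that interval are compatible with these libraries, and any difference under the fold threshold could not have been called. Against tHet the log2FC was −0.25 (−0.82 to 0.32, limma adjusted p = 0.726).

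Wnt5a (ENSMUSG00000021994.15, chr14:28504750-28527448, plus strand) encodes a ligand best known for the planar polarity and calcium branches. It was at 4.65, 6.11 and 5.33 CPM in Cre-, at 4.68, 8.21 and 6.35 CPM in tHet and at 13.0, 11.6 and 7.47 CPM in Tet tcKO. Every Tet tcKO library lay above every Cre- library, whereas Tet tcKO replicate 3 fell below tHet replicate 2. Mean levels were 5.36 ± 0.729, 6.41 ± 1.76 and 10.7 ± 2.88 CPM in the same order (SD, n = 3 each), 1.99 times as high in Tet tcKO as in Cre-. The log2FC of 0.90 against Cre- (standard error 0.30, limma adjusted p = 0.0862) and of 0.69 against tHet (limma adjusted p = 0.224) did not meet the call. Without CT010467.1 the Tet tcKO libraries were at 13.0, 11.6 and 10.5 CPM, above every tHet library as well, and the log2FC against Cre- was 1.06 (limma adjusted p = 0.0131), still short of the call.

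Per kilobase of exon, the scale on which genes can be compared, Wnt2b was the most abundant of the 19 Wnt ligands listed, at 2.66, 3.14 and 2.65 CPM per kb in Cre-, tHet and Tet tcKO. Wnt5a followed at 0.686, 0.820 and 1.37 CPM per kb. Wnt5b came next in Cre- and tHet, at 0.568 and 0.780 CPM per kb, whereas in Tet tcKO it stood at 0.339, under Wnt9a at 0.466 CPM per kb. Of the 17 ligands other than Wnt2b and Wnt5a, 6 passed the filter on low values. Wnt9b, which is known for kidney tubule and craniofacial development, was called lower in Tet tcKO than in Cre- (log2FC −1.61, limma adjusted p = 0.00818). It was at 3.00, 1.85 and 2.23 CPM in Cre-, 2.66, 2.60 and 1.47 CPM in tHet and 0.653, 0.725 and 0.0602 CPM in Tet tcKO, the last a single read. Against tHet the log2FC of Wnt9b was −1.54 (limma adjusted p = 0.0131), and no further ligand was called in either comparison by limma. At an unadjusted limma p under 0.05 there were 2 of these 6 ligands against Cre- and 3 against tHet, beside 16.1% and 17.5% of all tested genes. DESeq2 on recovered reads called 1 and 2 of them, where it called 5.37% and 4.90% of all tested genes. With edgeR, which called 3.49% and 2.86% of all, the count was 0 in each.

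Sfrp2 (ENSMUSG00000027996.13, chr3:83766321-83774316, plus strand) encodes a secreted Frizzled-related protein, which carries a Frizzled-like domain that binds Wnt proteins. It was at 0.765, 0.954 and 0.945 CPM in Cre-, at 0.792, 0.935 and 0.616 CPM in tHet and at 3.38, 1.98 and 2.47 CPM in Tet tcKO. The lowest Tet tcKO library was above the highest of all others. These levels rest on few reads, namely 13, 15 and 14 in Cre-, 11, 9 and 13 in tHet and 57, 30 and 41 in Tet tcKO. Mean levels were 2.94 times as high in Tet tcKO as in Cre- and 3.34 times as high as in tHet. The log2FC was 1.14 against Cre- (standard error 0.32, limma adjusted p = 0.0339) and 1.26 against tHet (standard error 0.32, limma adjusted p = 0.0196), so the fold threshold was met in both and the adjusted p in neither. With an adjusted p under 0.05 in its place, Sfrp2 would be called in both, where 5.42% and 5.18% of all tested genes would. With DESeq2, which called 5.37% and 4.90% of all tested genes, it was called in both (log2FC 1.58, adjusted p = 0.00582, and log2FC 1.85, adjusted p = 0.0014). In the limma fit it was called against tHet after TMM scaling (adjusted p = 0.00905) and without CT010467.1 (adjusted p = 0.00884). In all, Sfrp2 was called in 2 of 24 alternative settings against Cre- and in 5 of 24 against tHet. Over these settings the log2FC ran from 0.92 to 1.58 and from 1.00 to 1.85. With edgeR, which called 3.49% and 2.86% of all tested genes, it was called in neither comparison. Leaving out any 1 of the 9 libraries gave no call of Sfrp2 either.

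Sfrp1 (ENSMUSG00000031548.7, chr8:23411502-23449632, plus strand), a close relative of Sfrp2, was at 6.71, 4.01 and 4.05 CPM in Cre-, at 5.83, 9.24 and 13.0 CPM in tHet and at 14.5, 8.96 and 6.56 CPM in Tet tcKO. Levels in tHet and Tet tcKO spread widely and overlapped Cre- through tHet replicate 1 and Tet tcKO replicate 3. Means were 4.92 ± 1.55, 9.35 ± 3.58 and 10.0 ± 4.10 CPM (SD, n = 3 each). The log2FC of Tet tcKO was 0.92 against Cre- (limma adjusted p = 0.138) and 0.09 against tHet (limma adjusted p = 0.934), and that of tHet versus Cre- was 0.83 (limma adjusted p = 1.00). Summed markers of the ciliary epithelium and margin, 5 genes of which 4 were tested and none was at 0 in every library, were at 3.56 to 14.7 CPM in Cre-, 52.8 to 112 CPM in tHet and 40.6 to 95.1 CPM in Tet tcKO. In tHet and Tet tcKO most of that sum was Optc, at 42.1 to 98.9 and 32.9 to 84.9 CPM against 1.21 to 7.42 CPM in Cre-, and Cpxm2 of the same list had a log2FC in Tet tcKO of −0.36 against Cre- and −1.49 against tHet, neither called. The part of these markers in the levels of Sfrp1 was not tested. Without CT010467.1 the Tet tcKO libraries of Sfrp1 all exceeded those of Cre-, with a log2FC of 1.07 that was not called (limma adjusted p = 0.0525).

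Sfrp5 (ENSMUSG00000018822.7, chr19:42197971-42202252, minus strand) was the only tested antagonist among the 10 genes with a negative log2FC in both Tet tcKO comparisons. It was at 1.59, 1.08 and 1.76 CPM in Cre-, at 1.44, 2.08 and 1.66 CPM in tHet and at 1.01, 1.25 and 0.542 CPM in Tet tcKO. Tet tcKO lay below tHet and overlapped Cre- replicate 2. The log2FC was −0.48 against Cre- (limma adjusted p = 0.585) and −0.66 against tHet (standard error 0.33, limma adjusted p = 0.317). Neither was called, and over all tested genes 9.68% had every Tet tcKO library below every tHet library. Summed markers of the pigment epithelium, 8 genes of which 7 were tested and none was at 0 in every library, lay at 53.3 to 212 CPM in Cre- with the lowest in replicate 2, at 176 to 256 CPM in tHet and at 44.7 to 58.0 CPM in Tet tcKO. Of these markers, 2 were called lower against Cre- and 5 against tHet, and none higher. Not all fell, as Best1 had a log2FC of 0.31 against Cre- and 0.56 against tHet. Pmel at 0.17 and Dct at 0.03 were also above 0 against Cre-, though not against tHet. Their part in the levels of Sfrp5 was not tested.

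Frzb (ENSMUSG00000027004.3, chr2:80411970-80447625, minus strand), also known as Sfrp3, was at 8.65, 7.25 and 7.22 CPM in Cre-, at 5.83, 8.10 and 5.31 CPM in tHet and at 8.61, 11.1 and 7.89 CPM in Tet tcKO. All genotypes overlapped. The log2FC of Tet tcKO was 0.23 against Cre- (−0.35 to 0.81, limma adjusted p = 0.840) and 0.49 against tHet (−0.09 to 1.08, limma adjusted p = 0.392). Without CT010467.1 the Tet tcKO libraries were at 8.62, 11.1 and 11.1 CPM, above those of tHet at 5.51 to 8.11 CPM. They were above tHet after TMM scaling too, and overlapped Cre- in both settings. Frzb was not called in any alternative setting.

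Wif1 (ENSMUSG00000020218.11, chr10:121033960-121100650, plus strand), a Wnt-binding inhibitor of another protein family, did not pass the filter and was not tested. It had 1, 0 and 1 reads in Cre-, 1, 1 and 12 reads in tHet and 4, 2 and 2 reads in Tet tcKO. In 7 of the 9 libraries it was at or under 3 reads, and tHet replicate 3, the deepest library, alone reached 0.568 CPM. No fold is given at this depth.

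Dkk3 (ENSMUSG00000030772.6, chr7:112116017-112159057, minus strand) encodes a secreted member of the Dickkopf family that differs from its relatives in not being an established inhibitor of Lrp5 and Lrp6. It was the most abundant of the 10 genes, at 570, 442 and 517 CPM in Cre-, 382, 465 and 505 CPM in tHet and 910, 807 and 552 CPM in Tet tcKO. All Tet tcKO libraries exceeded all tHet libraries, and Tet tcKO replicate 3 alone reached into the range of Cre-. With means of 510 ± 64.0, 451 ± 62.9 and 756 ± 184 CPM (SD, n = 3 each), Tet tcKO was 1.48 times as high as Cre- and 1.68 times as high as tHet. The log2FC was 0.55 (limma adjusted p = 0.275) and 0.73 (limma adjusted p = 0.102). Without CT010467.1 the Tet tcKO libraries were at 910, 808 and 775 CPM, above all others, with a log2FC of 0.71 against Cre- (limma adjusted p = 0.0180) and 0.87 against tHet (limma adjusted p = 0.00691), both under the fold threshold.

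Lef1 (ENSMUSG00000027985.14, chr3:131110471-131224356, plus strand) encodes the DNA-binding partner of beta-catenin and is itself often a target of the pathway. It was at 1.71, 3.12 and 1.76 CPM in Cre-, at 3.53, 2.49 and 2.98 CPM in tHet and at 9.14, 12.3 and 7.89 CPM in Tet tcKO. The lowest Tet tcKO library was well above the highest of the 6 others, while Cre- and tHet overlapped. Means were 2.19 ± 0.801, 3.00 ± 0.518 and 9.76 ± 2.25 CPM (SD, n = 3 each). Lef1 rose 4.45-fold against Cre- and 3.25-fold against tHet. The log2FC was 1.95 (standard error 0.32, 95% confidence interval 1.28 to 2.62, limma adjusted p = 0.000491) and 1.54 (standard error 0.32, 0.87 to 2.21, limma adjusted p = 0.00466). The call against Cre- held in each of 24 alternative settings, with a log2FC from 1.76 to 2.18. That against tHet held in 16 of 24, and the adjusted p was 0.0149 with no filter on low values, 0.0147 without tHet replicate 1, 0.0235 without tHet replicate 2 and 0.0251, 0.0234 and 0.0160 without Tet tcKO replicates 1, 2 and 3. It was 0.0244 without tHet replicate 3 and Tet tcKO replicate 3, or 0.0166 with TMM scaling in addition. In these settings the log2FC stayed between 1.37 and 1.68.

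Axin2 (ENSMUSG00000000142.15, chr11:108920349-108950783, plus strand) is a scaffold of the destruction complex and the most widely used readout of canonical signalling. It was at 35.8, 38.3 and 38.7 CPM in Cre-, at 34.8, 32.7 and 32.3 CPM in tHet and at 49.8, 42.4 and 31.8 CPM in Tet tcKO. The Tet tcKO libraries spanned the range of the other genotypes, with replicate 3 the lowest and replicate 1 the highest of the 9. The log2FC of Tet tcKO was 0.11 against Cre- (−0.34 to 0.56, limma adjusted p = 0.920) and 0.29 against tHet (−0.16 to 0.74, limma adjusted p = 0.564). Both upper bounds lie below the fold threshold of the call. Without CT010467.1 the Tet tcKO libraries were at 49.8, 42.5 and 44.6 CPM, above all others, with a log2FC of 0.27 (limma adjusted p = 0.223) and 0.43 (limma adjusted p = 0.0570). In that setting the median log2FC of all tested genes was itself 0.14 against Cre- and 0.07 against tHet. After TMM scaling the Tet tcKO libraries were at 47.0, 37.1 and 40.8 CPM, above tHet but overlapping Cre- at 35.7 to 39.7 CPM.

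**Figure D2:**
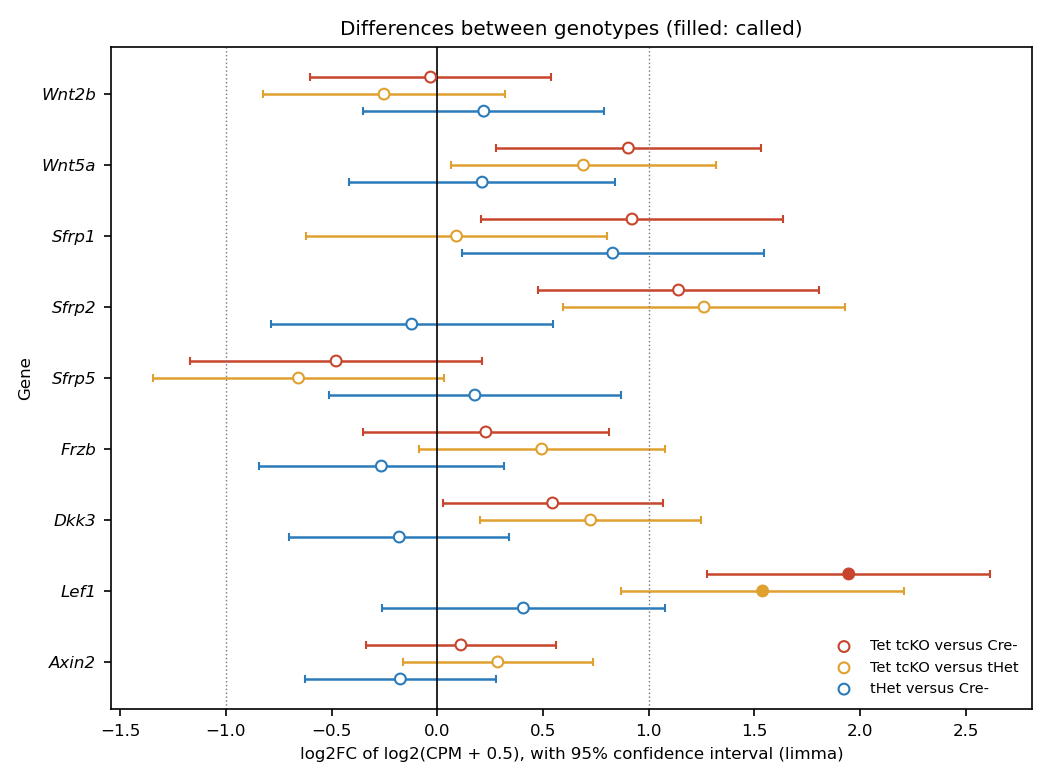
Log2FC of log2(CPM + 0.5) with its 95% confidence interval (x axis) for the 9 tested genes (y axis) in the 3 comparisons, fitted by limma on 9 libraries. Filled points were called. Lef1 is filled in both Tet tcKO comparisons at 1.95 and 1.54, and every other point is open.

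Against this range of sizes, the direction over the members was counted. Of the 9 tested genes, 7 had a log2FC above 0 and 2 below 0 in Tet tcKO versus Cre-, with a median of 0.55 against 0.00 over all tested genes. In Tet tcKO versus tHet the counts were also 7 and 2, with a median of 0.49 against −0.06. The negative values were those of Sfrp5 and Wnt2b, and that of Wnt2b turned positive against Cre- without CT010467.1. All Tet tcKO libraries exceeded all Cre- libraries for 3 of the 9 genes, an order shown by 10.0% of all tested genes, and all tHet libraries for 3, shown by 7.35%. None of the 9 had all Tet tcKO libraries below Cre-, as 9.60% of tested genes had. The Tet tcKO libraries are shared by both comparisons, which are not independent. Because the genes were chosen with earlier results of these data known, the counts describe a chosen set and test nothing. At an unadjusted p under 0.05, limma had 5 of the 9 genes against Cre- and 4 against tHet, beside 16.1% and 17.5% of all tested genes.

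In tHet versus Cre- none of the 9 genes was called by limma, edgeR or DESeq2, where 0.0422% of all tested genes were called by limma, 0.00469% by edgeR, 0.188% by DESeq2 and 0.0938% by limma with an adjusted p under 0.05. Of the 9, only Sfrp1 had an unadjusted limma p under 0.05, as 4.55% of all tested genes had. The log2FC lay between −0.26 for Frzb and 0.83 for Sfrp1. For Axin2 all tHet libraries lay below Cre-, an order that 5.37% of tested genes showed and 5.78% showed upward, with a log2FC of −0.17 (limma adjusted p = 1.00), and it overlapped after TMM scaling. For Lef1 the difference of 0.41 (−0.26 to 1.08) has an interval that reaches past the fold threshold, so that a rise of that size could not be detected or dismissed.

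**Figure D3:**
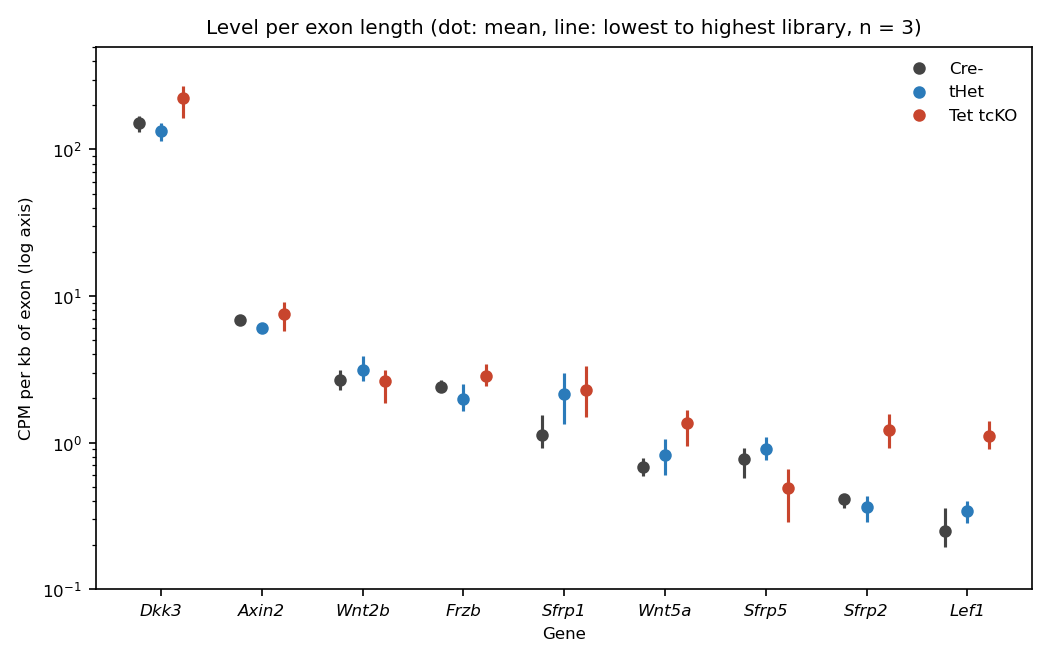
Level per kilobase of exon (y axis, log scale, CPM per kb) of the 9 tested genes (x axis, ordered by mean level), with the mean as a dot and the lowest to highest library as a line (n = 3 per genotype). Dkk3 lies at 134 CPM per kb or more in each genotype, and Sfrp2 and Lef1 move up from the lowest ranks in Cre- and tHet to above Sfrp5 in Tet tcKO.

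Ordered by level per kilobase in Cre-, Dkk3 came first at 152 CPM per kb, followed by Axin2 at 6.83. Wnt2b at 2.66 and Frzb at 2.38 CPM per kb did not differ beyond the spread of their libraries. Sfrp1 at 1.13 and Sfrp5 at 0.777 CPM per kb overlapped, as did Sfrp5 and Wnt5a at 0.686. Sfrp2 at 0.413, Lef1 at 0.250 and Wif1 at 0.0174 CPM per kb closed the order, and the ranges of these 3 overlapped neither each other nor that of Wnt5a. In Tet tcKO, Wnt5a at 1.37, Sfrp2 at 1.21 and Lef1 at 1.11 CPM per kb had overlapping ranges, and all 3 lay above Sfrp5 at 0.492 CPM per kb.

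Among 11883 genes with a mean of at least 5 CPM, those whose log2(CPM + 0.5) followed that of Lef1 most closely over the 9 libraries were Gm10419 (r = 0.986), Arr3 (r = 0.981) and Ldlrad3 (r = 0.975). These correlations are a description and share the 9 libraries and the step between genotypes. Arr3 encodes cone arrestin, and it was at 82.1, 140 and 90.1 CPM in Cre-, 138, 148 and 127 CPM in tHet and 279, 370 and 260 CPM in Tet tcKO. The summed level of 5 cone markers, none of which was at 0 in every library, was 328 to 441 CPM in Cre-, 372 to 459 CPM in tHet and 793 to 1154 CPM in Tet tcKO. Of these markers, 4 were called higher and 1, Pde6h, lower in both Tet tcKO comparisons. Over 5 rod markers the sum was 24513 to 30483 CPM in Cre-, 20920 to 26386 CPM in tHet and 1162 to 7478 CPM in Tet tcKO, and all 5 were called lower. The summed level of 7 Müller glia markers was 1372 to 1806, 1284 to 1485 and 680 to 1060 CPM. Of them, Glul and Rlbp1 were called lower in both Tet tcKO comparisons and none was called higher, while the log2FC against Cre- was 0.70 for Sox9 and 0.51 for Lhx2. The sum of 7 endothelial and mural markers was 229 to 235, 185 to 247 and 260 to 393 CPM. None of these was called in any comparison, and their log2FC against Cre- went in both directions. Further marker lists held calls as well. Against Cre-, 2 of 4 tested retinal progenitor markers and 1 of 5 microglia markers were called higher. Called lower against Cre- were 1 of 5 bipolar and 1 of 5 amacrine markers. Against tHet, 1 amacrine and 1 of 5 ganglion markers were called lower. Horizontal, astrocyte and lens lists had no call. In pooled tissue, fewer cells of a type and less RNA per cell cannot be told apart, and the part of these cell types in the levels of Lef1, Sfrp2, Wnt5a and Dkk3 was not tested.

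Of 107 other Wnt pathway genes in 8 lists, 87 were tested. Against Cre-, 7 were called higher and 3 lower in Tet tcKO, with a median log2FC of 0.29. Against tHet, 7 were called higher and 2 lower, with a median of 0.20. As shares of the tested genes, these 10 and 9 calls stand beside the 3.60% and 3.00% given above for all genes, of which 1.57% and 1.61% were lower calls. Without Tet tcKO replicate 1 the counts were 6 and 5, while those over all tested genes fell from 768 and 640 to 360 and 287. The lists, like the members, were chosen with earlier results of these data known.

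Among regulators of ligand availability, R-spondins, which are secreted amplifiers of the pathway, gave 2 of the calls out of 8 tested genes. Rspo4 was at 1.77, 1.02 and 0.878 CPM in Cre-, 1.01, 1.56 and 1.33 CPM in tHet and 34.0, 16.3 and 11.4 CPM in Tet tcKO. It rose with a log2FC of 3.50 against Cre- (standard error 0.37, limma adjusted p = 3.79e-06) and 3.42 against tHet, the largest rise in these lists. Rspo2 rose against Cre- (log2FC 1.60, limma adjusted p = 0.000445), and against tHet its log2FC was 1.10 (limma adjusted p = 0.0131). Of the 12 tested antagonists outside the 10 genes, limma and edgeR called none in either comparison, 5 had an unadjusted limma p under 0.05 in each (16.1% and 17.5% of all tested genes), and DESeq2 called 1, Notum, against Cre-.

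Receptors gave calls in both directions among 17 tested. Fzd5, a Frizzled receptor known for its part in eye development, was at 34.0, 44.2 and 39.5 CPM in Cre-, 25.4, 38.8 and 30.5 CPM in tHet and 126, 105 and 88.6 CPM in Tet tcKO. It rose with a log2FC of 1.42 (limma adjusted p = 0.000313) against Cre- and 1.74 (limma adjusted p = 4.69e-05) against tHet, and its exons lie opposite those of Gm38058. Fzd10 fell, from 8.01, 9.99 and 8.30 CPM in Cre- and 6.84, 7.27 and 7.39 CPM in tHet to 1.13, 2.50 and 1.51 CPM in Tet tcKO (log2FC −2.11, limma adjusted p = 0.000137, and −1.84). Fzd6 was called against tHet (log2FC 1.46, limma adjusted p = 0.00740) and had a log2FC of 1.26 against Cre- (limma adjusted p = 0.0187, or 0.00245 and called with a replicate block).

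Among 13 tested genes of the cytoplasmic relay and the destruction complex, limma, edgeR and DESeq2 called none in either comparison, with 0 against Cre- and 2 against tHet at an unadjusted limma p under 0.05, beside 16.1% and 17.5% of all tested genes. The log2FC against Cre- lay between −0.27 and 0.42. Of 12 tested nuclear effectors outside Lef1, Tle3, a Groucho-family co-repressor, was called against tHet (log2FC 1.02, limma adjusted p = 0.00641). Against Cre- the log2FC of Tle3 was 0.97 (limma adjusted p = 0.00816), just under the fold threshold.

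Calls went both ways among 10 tested target and feedback genes other than Axin2. Nkd2, an inhibitor that binds Dishevelled, rose from 0.706, 1.08 and 0.743 CPM in Cre- to 11.2, 6.13 and 5.66 CPM in Tet tcKO, with tHet at 1.15, 1.45 and 1.66 CPM (log2FC 2.55, limma adjusted p = 4.88e-05, and 2.03 against tHet). Zcchc12, better known as a co-activator of BMP signalling, rose as well, with a log2FC of 1.67 (limma adjusted p = 0.00526) and 1.92. Ccn4, also known as Wisp1, a secreted matrix-associated protein, fell from 32.7, 31.3 and 28.0 CPM in Cre- and 37.7, 46.0 and 22.3 CPM in tHet to 0.416, 9.03 and 2.35 CPM in Tet tcKO. Its log2FC was −3.41 (limma adjusted p = 0.000185) and −3.56, and without Tet tcKO replicate 3 it was not called (limma adjusted p = 0.0197 and 0.0198). Of 9 planar polarity genes, Prickle2 rose in both comparisons (log2FC 1.19, limma adjusted p = 0.00191, and 1.31) and Vangl2 against Cre- (log2FC 1.07, limma adjusted p = 0.00674), with a log2FC of 0.89 against tHet (limma adjusted p = 0.0280).

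The calls of Rspo4, Rspo2, Nkd2, Fzd5 and Fzd10 held with each of the 9 libraries left out in turn. That of Prickle2 was lost without Tet tcKO replicate 1 (limma adjusted p = 0.0203 against Cre- and 0.0119 against tHet). For Zcchc12 the adjusted p against Cre- was 0.0648 without Tet tcKO replicate 1, 0.0114 without Cre- replicate 2 and 0.0156 without Cre- replicate 3, and against tHet it was 0.0261 without Tet tcKO replicate 1 and 0.0147 without tHet replicate 1. The single calls of Wnt9b, Fzd6, Vangl2 and Tle3 were each lost with any of 5 or 6 libraries left out, with an adjusted p of up to 0.0575, 0.0741, 0.0595 and 0.0719. The highest was reached without Tet tcKO replicate 3 for Wnt9b, without Tet tcKO replicate 1 for Fzd6 and Vangl2 and without tHet replicate 1 for Tle3.

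**Figure D4:**
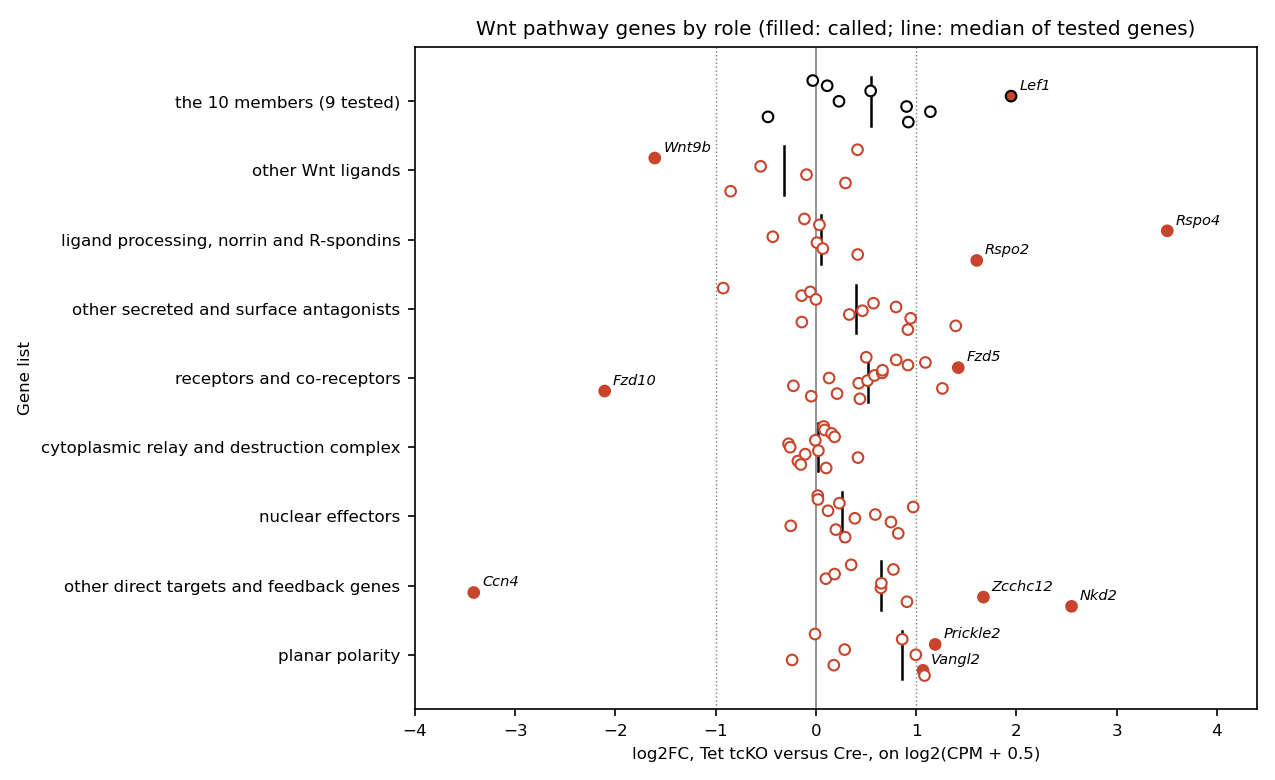
Log2FC in Tet tcKO versus Cre- on log2(CPM + 0.5) (x axis) of each tested gene, grouped by its role in the pathway (y axis), with filled points for called genes and a line at the median of each list. Lef1 is the filled member, while Rspo4 at 3.50 and Ccn4 at −3.41 lie farthest out among the other lists.

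Exons of Sfrp2, Wnt5a, Lef1 and Axin2 overlap those of genes on the opposite strand, by 347, 358, 1208 and 209 bases. The libraries were stranded, but the strand setting of the counting is not given in the sources used here. Gm26771, opposite Sfrp2, was at 0.237 CPM or less in every library, Gm2670, opposite Wnt5a, at 0.727 CPM or less, and Gm11670, opposite Axin2, at 1.15 CPM or less. Gm43352, opposite Lef1, was not found by that name among the deposited genes, so its level could not be given.

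**Figure D5:**
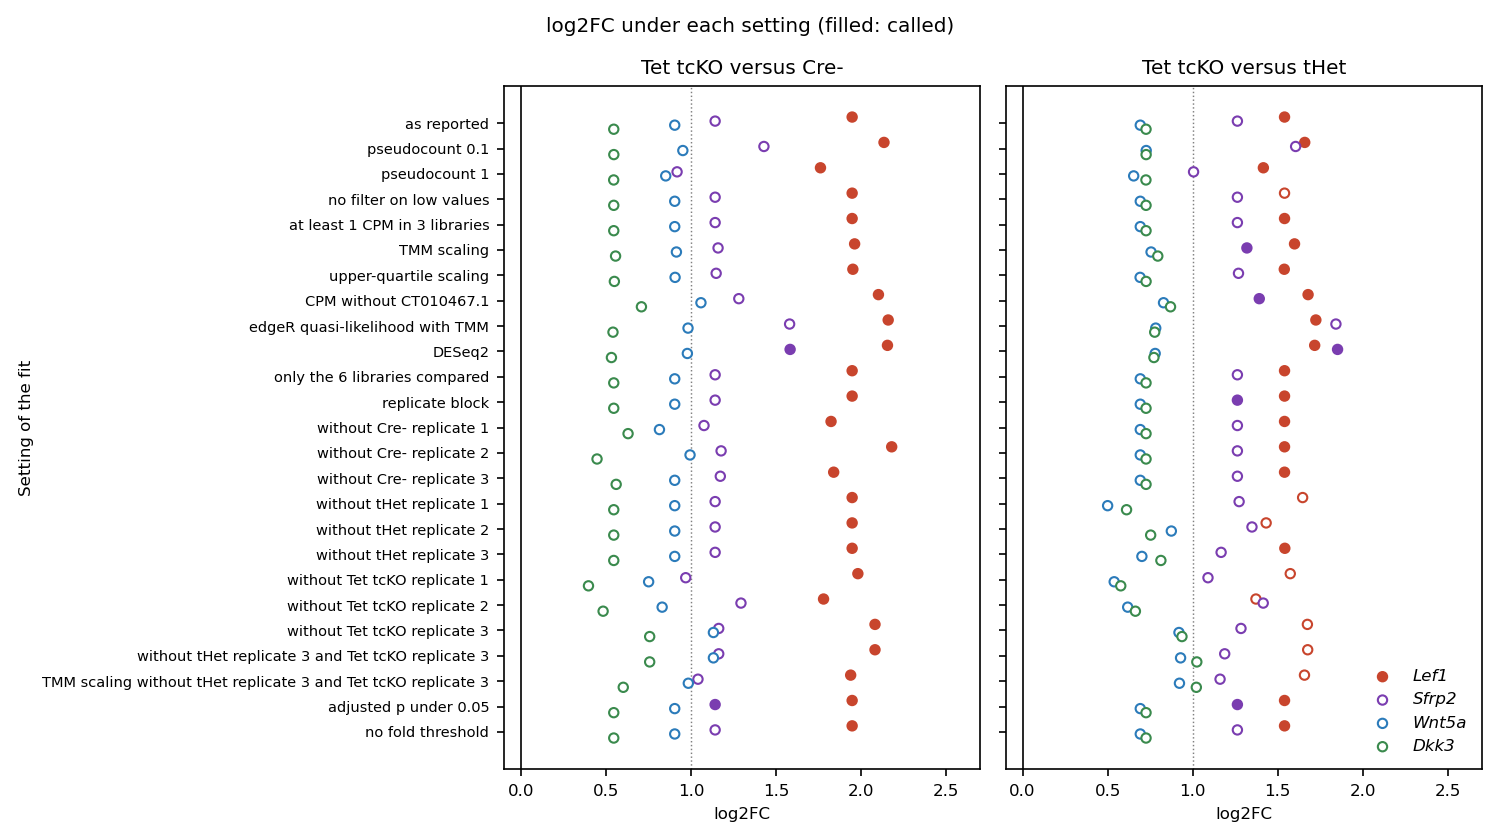
Log2FC (x axis) of Lef1, Sfrp2, Wnt5a and Dkk3 under each setting of the fit (y axis) in Tet tcKO versus Cre- (left) and versus tHet (right), with filled points where the gene was called and dotted lines at a log2FC of 1. Lef1 is filled in every row on the left and in part of the rows on the right, and all points of the 4 genes lie above 0.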

How the data were processed

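Bulk RNA-seq was analysed in 9 libraries of P21 retina, 3 per genotype, grouped by their labels. The authors removed ribosomal RNA, prepared stranded libraries, trimmed reads (Trim Galore 0.6.7), aligned them to mm10 (STAR 2.7.0f) and counted them on genes (HTSeq 0.11.2), per the labels and methods. The annotation release and the strand setting are not given in the sources used here. The authors deposited CPM, along with fold changes and p-values of their own comparisons, which were not used. The CPM were whole multiples of a single read in 100% of values (tolerance 0.01), so reads were recovered. Libraries of a genotype differed by more than sampling noise (chi-square per degree of freedom of 13.3 or more). P-values measure the spread between these pooled libraries. Floors cover counting error only.

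The genes reaching 0.5 CPM in 3 or more libraries entered a fit of log2(CPM + 0.5) by limma 3.58.1 (eBayes with trend), 1 for all 9 libraries, with Benjamini-Hochberg adjustment over all tested genes. Alternatives were other pseudocounts, filters, scalings and thresholds, edgeR 4.0.16 and DESeq2 1.42.0 on recovered reads, a replicate block, only the libraries compared, and each library left out. Leaving out tHet and Tet tcKO replicate 3 together was added after seeing the data. The labels number the replicates without stating shared animals or batches. Deviations of same-numbered libraries correlated at 0.15 to 0.56 in the 3 pairs of Cre- and Tet tcKO, −0.35 to 0.36 in those of Cre- and tHet and −0.30 to 0.27 in those of tHet and Tet tcKO, so blocked values are given beside results for Tet tcKO versus Cre- where a call changed. Scripts were tested on simulated data. The members and gene lists were chosen with earlier results of these data known. Named outside the members were the 12 other pathway genes called in any comparison, the most abundant ligands per kilobase, the 3 genes most like Lef1, the Tet genes and cell type marker lists. Wnt5b, Wnt9a, Notum, CT010467.1 and single marker genes were named after their values were seen. Positions are from GENCODE vM21, and promoter sequences from RefSeq (GRCm38.p6). Figures were drawn with matplotlib 3.10.9.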

Additional observations from a re-analysis of the deposited data

How the results depend on the processing

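With the member calls of 1 gene in Tet tcKO versus Cre- and 1 in Tet tcKO versus tHet as reported, DESeq2 and an adjusted p under 0.05 each gave 2 and 2, Sfrp2 being added. Against tHet the count was also 2 with TMM scaling, without CT010467.1 and with the replicate block. It was 0 with no filter on low values and, among alternatives added after seeing the data, 0 without tHet replicate 3 and Tet tcKO replicate 3, also after TMM scaling. The filter changed how many genes were tested, and the other causes were not tested. Leaving out 1 library at a time gave 1 to 1 member against Cre-, 0 to 1 against tHet (0 without tHet replicate 1 or 2 or any Tet tcKO library), and 6 to 12 and 5 to 11 of the other pathway genes, fewest without Tet tcKO replicate 1. In tHet versus Cre- the count of members called was 0 in every alternative. Over member log2FC, 625 alternatives kept direction and side of the threshold, 7 crossed it upward, 8 downward and 8 changed sign.

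Signs changed for differences near 0. In Tet tcKO versus Cre-, Wnt2b was at 0.12 without CT010467.1, at −0.16 to 0.20 with single libraries left out (0.08 without Cre- replicate 2), and at 0.20 and, with TMM, 0.047 without both replicates 3. Axin2 ran from −0.033 to 0.29 with single libraries left out. In Tet tcKO versus tHet, Sfrp1 ran from −0.20 (−0.19 without tHet replicate 1) to 0.35 with single libraries left out, and was at 0.60 without both replicates 3. In tHet versus Cre-, Rspo4 was at −0.0010 with DESeq2, −0.057 to 0.30 with single libraries left out and −0.047 with TMM without both replicates 3. With single libraries left out, Ccn4 ran from −0.076 to 0.44, Tle3 from −0.18 to 0.082 and Wnt9b from −0.20 to 0.15. Without both replicates 3, Wnt9b was at 0.15 and, with TMM, 0.021, and Vangl2 at −0.030 with TMM.

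Same-numbered libraries deviated together, at r of 0.15 or more in each pair, between Cre- and Tet tcKO and not in the other 2 pairings of genotypes (mean r 0.11 over 9 same-numbered pairs, −0.05 over 18 others). Among the genes named, the replicate block changed no call in Tet tcKO versus Cre- other than that of Fzd6, and in Tet tcKO versus tHet it added Sfrp2, Rspo2 and Wnt9b. With the replicate block, 1127, 1125 and 40 genes were called in Tet tcKO versus Cre-, Tet tcKO versus tHet and tHet versus Cre-, against 768, 640 and 9. Without a filter they were 417, 351 and 1, with DESeq2 1145, 1046 and 40, and without Tet tcKO replicate 1 they were 360, 287 and 5. At 3 libraries a genotype, Sfrp2 and Wif1 are limited by their few reads.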
